A study of Homo sapiens with 6 samples.

Results

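The nuclear genes of respiratory complexes II, III, IV and V were examined in RCC10, a human cell line established from clear cell renal carcinoma. Members were the rows of the count table with the symbols SDHA, SDHB, SDHC, SDHD, CYC1 or UQCRFS1, or with symbols that begin with UQCRB, UQCRC, UQCRH, UQCRQ, UQCR1, COX5, COX6, COX7, COX8 or ATP5. This rule took 48 of 19009 genes, with 4 in complex II, 11 in complex III, 13 in complex IV and 20 in complex V. Of the 48, 37 encode subunits that are present in most tissues (4, 9, 9 and 15 for complexes II, III, IV and V). The other 11 are near copies, pseudogenes, tissue isoforms, a readthrough gene, a supercomplex factor and genes that share a symbol stem. ATP synthase genes carry older symbols in the table, so that ATP5A1 is the gene now called ATP5F1A, and all 48 symbols were matched to a current gene through RefSeq.

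The series has 3 groups of 2 libraries. HIF double-knockout cells were RCC10 cells given lentiviral guide RNAs and selected with puromycin. The series' design text names the knocked-out proteins as HIF-1alpha and HIF-2alpha, which HIF1A and EPAS1 encode. VHL-restored cells were RCC10 cells that received a lentivirus with the VHL gene, with no selection step in the labels. Parental cells were RCC10 cells labelled as control, and the sources used here do not say whether they carried a control guide or an empty vector. RCC10 lacks functional VHL, so parental and double-knockout cells share that loss. The culture medium was DMEM with 10% FBS for every group, and poly(A) RNA was sequenced. The sources used here do not say whether the engineered cells were clones or pools, which promoter drives VHL, or whether replicates came from separate cultures. The p-values below rest on the spread between libraries of the same group, estimated over all 6 libraries. That spread may therefore be technical.

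Complex II oxidises succinate to fumarate and passes the electrons to ubiquinone, and is also an enzyme of the citric acid cycle. Complex III moves electrons from ubiquinol to cytochrome c, complex IV passes them on to oxygen, and both pump protons across the inner mitochondrial membrane. Complex V, ATP synthase, lets protons flow back through a rotating ring and makes ATP. Clear cell renal carcinoma with VHL loss keeps HIF stable in the presence of oxygen, and HIF is known to favour glycolysis over respiration. Several catalytic subunits of complexes III, IV and V are encoded in mitochondrial DNA, and those were not analysed here.

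The sequences just before the transcription start are shown for UQCRFS1, SDHB, SDHA and COX6A1, because these genes carry the largest rises, a fall in double-knockout cells and a change of opposite sign in the engineered lines. They are the 250 bases before the RefSeq start on GRCh38.p14, 5′ to 3′ on the gene's strand, and capitals mark a match to the NRF1 motif (GCGCA, any base, GCGC) or the ETS motif CCGGAAG on either strand. UQCRFS1 lies on the minus strand (chr19:29213152-29213401), SDHB on the minus strand (chr1:17054033-17054282), SDHA on the plus strand (chr5:218070-218319) and COX6A1 on the plus strand (chr12:120437863-120438112).
UQCRFS1: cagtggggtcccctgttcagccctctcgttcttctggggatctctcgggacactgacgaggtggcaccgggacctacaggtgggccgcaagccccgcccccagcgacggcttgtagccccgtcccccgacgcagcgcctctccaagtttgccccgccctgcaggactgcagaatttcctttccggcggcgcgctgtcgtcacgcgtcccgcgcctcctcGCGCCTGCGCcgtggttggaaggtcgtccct
SDHB: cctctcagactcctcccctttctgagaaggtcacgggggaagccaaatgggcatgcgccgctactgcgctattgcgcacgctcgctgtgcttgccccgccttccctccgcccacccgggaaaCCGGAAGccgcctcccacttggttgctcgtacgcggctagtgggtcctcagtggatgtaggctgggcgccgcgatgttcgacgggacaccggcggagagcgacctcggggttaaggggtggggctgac
SDHA: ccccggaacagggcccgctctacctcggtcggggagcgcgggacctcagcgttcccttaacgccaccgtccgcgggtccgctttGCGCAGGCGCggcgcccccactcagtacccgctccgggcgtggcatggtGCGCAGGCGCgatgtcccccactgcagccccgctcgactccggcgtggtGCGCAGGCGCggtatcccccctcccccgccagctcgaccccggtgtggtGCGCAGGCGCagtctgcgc
COX6A1: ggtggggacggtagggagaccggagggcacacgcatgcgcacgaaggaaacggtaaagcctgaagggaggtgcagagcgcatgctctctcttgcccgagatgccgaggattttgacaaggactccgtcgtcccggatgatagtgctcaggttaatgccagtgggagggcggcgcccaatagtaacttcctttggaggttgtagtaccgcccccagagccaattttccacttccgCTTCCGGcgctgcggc

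The SDHA stretch holds the NRF1 motif 4 times, UQCRFS1 holds it once, and SDHB and COX6A1 each hold the ETS motif once. NRF1 and the ETS factor GABP are known regulators of nuclear genes for mitochondria. In windows from 250 bases before to 50 bases after the start, 9 of the 29 subunit promoters analysed held the NRF1 motif (31.03%), against 6.29% of 27305 promoters. The ETS motif was in 13 of 29 (44.8%), against 10.7% of all. The core HIF motif ACGTG was in 8 of 29 (27.6%), against 21.6% of all, and in none of the printed stretches. The promoters of SDHC, CYC1, UQCRB, COX6C, ATP5B, ATP5D, ATP5G3 and ATP5J2 were not analysed here. CACGTG reads as ACGTG on both strands and was counted once per promoter. A match describes the letters only and shows neither binding nor a cause.

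Total counts per library were 29929116 and 26085121 in double-knockout, 27890958 and 27776717 in VHL-restored and 29454611 and 22248126 in parental cells. Levels are CPM, a gene's reads relative to the TMM-scaled library size. They are not per length, so they compare libraries and not genes. EPAS1 was at 44.4 and 48.0 CPM in double-knockout, 363 and 369 CPM in VHL-restored and 352 and 349 CPM in parental cells. HIF1A was at 29.6 and 31.6 CPM in double-knockout, 304 and 286 CPM in VHL-restored and 69.5 and 72.9 CPM in parental cells. VHL was at 43.3 and 47.3 CPM in double-knockout, 652 and 723 CPM in VHL-restored and 38.8 and 39.5 CPM in parental cells. EPAS1 and HIF1A were thus lowest in double-knockout and VHL highest in VHL-restored cells, which follows the labels. HIF1A was also higher in VHL-restored than in parental cells (log2 fold change 2.05, edgeR adjusted p = 1.49e-22). The labels do not name that difference, and its cause was not tested. Of 10 renal epithelial and carcinoma markers, 9 had counts in every library, with summed levels of 7053 to 7061 CPM in double-knockout, 6105 to 6468 CPM in VHL-restored and 8816 to 8875 CPM in parental cells. CA9, a marker of clear cell carcinoma, had no count apart from 1 count in a parental library. Of the leukocyte, endothelial, fibroblast and striated muscle lists, 3, 3, 3 and 1 markers had counts in every library of each group. The summed leukocyte markers were at 23.2 to 25.6 CPM in double-knockout, 24.1 to 26.7 CPM in VHL-restored and 61.04 to 65.54 CPM in parental cells, and striated muscle markers stayed at or under 0.505 CPM in all groups. Endothelial markers summed to 2.29 to 2.72 CPM in double-knockout, 3.51 to 3.79 CPM in VHL-restored and 1.99 to 2.29 CPM in parental cells, and fibroblast markers to 27.5 to 28.1 CPM in double-knockout, 39.1 to 40.1 CPM in VHL-restored and 42.6 to 43.4 CPM in parental cells. The part of these levels in the results was not tested. In bulk RNA, fewer cells of a type and less RNA per cell cannot be told apart.

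In double-knockout cells, the subunit genes were mostly higher than in parental cells. Of the 37 subunit genes 25 were higher, 4 were lower and 8 did not pass an adjusted p of 0.05 in edgeR's quasi-likelihood test with Benjamini-Hochberg adjustment over all 18273 genes tested. Over all genes tested 54.1% were called, with 26.6% higher and 27.5% lower. Among the 13702 genes with a mean of at least 10 counts, which are nearer to the subunits in depth, 34.5% were higher and 35.1% lower. The share of higher calls was 67.6% for the subunits, and their median log2 fold change was 0.24, against 0 over all genes tested. Most changes were small, from -0.26 (SDHA) to 1.22 (UQCRFS1). The 4 lower genes were SDHA, UQCRB, COX5B and COX6A1. The count of lower genes was 1 without double-knockout replicate 2, 2 without parental replicate 1 and 1 without parental replicate 2. Over all 48 members, 47 had a count in some library and were tested, and 27 were higher, 4 lower and 16 not passed.

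In VHL-restored cells the subunits split. Of the 37 subunit genes 15 were higher, 9 were lower and 13 did not pass, against 54.2% of all genes called, 26.5% higher and 27.7% lower. Among the genes with at least 10 counts, 34.1% were higher and 35.5% lower. The subunit shares were 40.5% higher and 24.3% lower, and their median log2 fold change was 0.08. The higher count was 18 without VHL-restored replicate 1, 10 without VHL-restored replicate 2, 10 without parental replicate 1 and 11 without parental replicate 2. The median was 0.17 without VHL-restored replicate 1 and 0.02 without VHL-restored replicate 2. The VHL-restored libraries differ in one way from the other groups. Replicate 2 was above replicate 1 for 36 of 37 subunits, by a median of 0.13 on the log2 scale, whereas replicate 2 was above replicate 1 for 16 of 37 in double-knockout and 19 of 37 in parental cells. Among the 13115 genes with at least 10 counts and a known length, VHL-restored replicate 2 was above replicate 1 for 6340 and below for 6746. The median log2 difference of those genes was -0.0014. Over the 48 members, 17 were higher, 10 lower and 20 not passed in VHL-restored against parental cells.

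Between the engineered lines, double-knockout cells were above VHL-restored cells for 21 of the 37 subunits and below for 9, with 7 not passed and a median log2 difference of 0.23. Over all genes tested 56.0% were called in this comparison, 28.0% in each direction, and among genes with at least 10 counts 36.1% were higher and 35.6% lower. The lower count was 4 without double-knockout replicate 2 and 4 without VHL-restored replicate 2. The higher count was 17 without VHL-restored replicate 1 and 24 without VHL-restored replicate 2. Over the 48 members, 23 were higher in double-knockout cells, 9 lower and 15 not passed. The comparisons of the engineered lines with parental cells share the parental libraries, so their values are given side by side below.

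**Figure D1:**
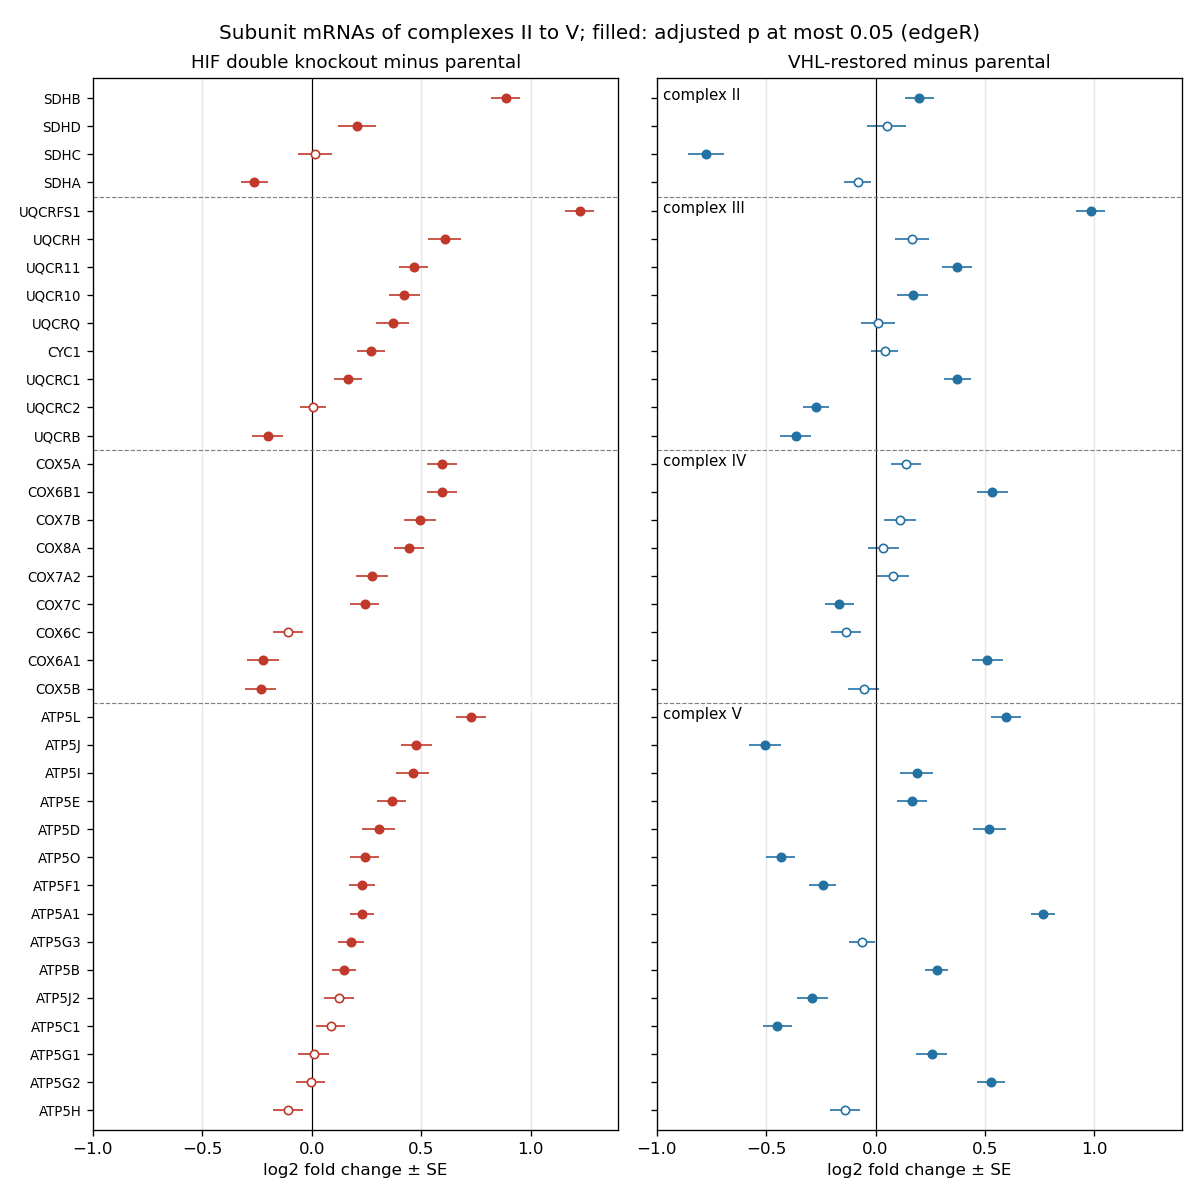
Log2 fold change with its standard error for the 37 subunit genes, ordered within each complex by the double-knockout value. The left panel is HIF double knockout minus parental and the right panel VHL-restored minus parental, and filled points passed an adjusted p of 0.05 in edgeR. UQCRFS1 is far to the right in both panels, SDHC is far to the left in the right panel alone, and most filled points on the left are above 0.

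Transcript length moved with these results. The 37 subunits mostly have short mRNAs, with a median annotated length of 842 bases and 22 of 37 under 1 kb. The median was 2844 bases over the 13115 genes with at least 10 counts and a known length. Some annotated lengths were long, at 13566 bases for SDHC and 5575 bases for UQCRB. Corrected values below depend on the annotated transcript picked for each gene. The 1111 genes under 1 kb had a median log2 fold change of 0.20 in double-knockout cells and 0.05 in VHL-restored cells, both against parental. The 6146 genes of 3 kb or more had medians of -0.09 in double-knockout cells and -0.03 in VHL-restored cells. After a smooth trend on length and GC content was taken out of each library, a step chosen after the data were seen, 17 subunits were higher and 8 lower in double-knockout cells, with a median log2 fold change of 0.10. In VHL-restored cells 17 were higher and 16 lower, with a median of 0.02. Between the lines 19 were higher in double-knockout cells and 11 lower, with a median log2 difference of 0.10, and the medians were 0.23 in complex II, 0.19 in complex III, -0.01 in complex IV and -0.035 in complex V. Of all 18273 genes tested, the corrected fit called 5308 higher and 5304 lower in double-knockout cells. It called 5270 higher and 5303 lower in VHL-restored cells, and 5452 higher and 5434 lower between the lines. The corrected fit also has less spread between replicates, with a biological coefficient of variation of 2.83%, against 4.41% without it. The trend was fitted to these same libraries, so the correction can itself lower that spread. Its adjusted p-values can be far smaller at like changes. For SDHB in double-knockout cells the edgeR adjusted p was 1.94e-56 with it and 2.42e-13 without it. Calls after the correction are therefore not on the same scale as calls without it. Of the 29 subunits called in double-knockout cells, 19 stayed called in the same direction after the correction, and 14 higher and 1 lower held under it and with any 1 library left out. Of the 24 called in VHL-restored cells, 23 stayed called after the correction, and 10 higher and 6 lower held under it and with any 1 library left out. The part of length and GC content in the results was not tested.

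**Figure D2:**
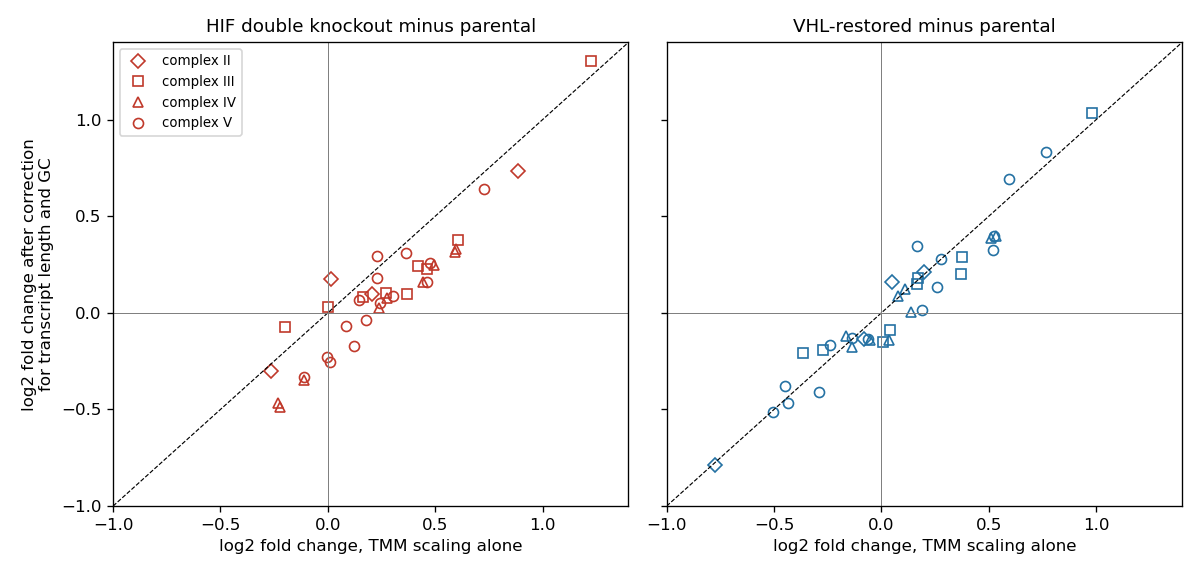
Log2 fold change of the 37 subunit genes after correction for transcript length and GC content (vertical) against the value with TMM scaling alone (horizontal), with the diagonal of equal values dashed. In the left panel (HIF double knockout minus parental) most points are under the diagonal, and the subunit median is 0.10 after correction and 0.24 before it. In the right panel (VHL-restored minus parental) points lie nearer to the diagonal.

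The summed level of the complex II subunits was 340.7 ± 4.16 CPM in double-knockout, 276.8 ± 6.87 CPM in VHL-restored and 284.6 ± 1.31 CPM in parental cells (SD, n = 2 each). Complex III summed to 1087 ± 10.3 CPM in double-knockout, 955.8 ± 67.0 CPM in VHL-restored and 893.4 ± 1.19 CPM in parental cells. Complex IV summed to 852.5 ± 3.17 CPM in double-knockout, 768.8 ± 65.8 CPM in VHL-restored and 705.7 ± 3.83 CPM in parental cells. These sums are weighted towards the most abundant subunits. Complex V summed to 2906 ± 48.1 CPM in double-knockout, 2960 ± 163 CPM in VHL-restored and 2518 ± 26.7 CPM in parental cells, with ATP5B and ATP5A1 the largest terms. The sums of complexes II, III and IV were highest in double-knockout cells. With 2 libraries against 2, the smallest two-sided p of an exact permutation test of a single sum is 0.333, so the sums are given as descriptions.

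The 4 complex II genes behaved differently from each other, with 2 higher and 1 lower in double-knockout and 1 higher and 1 lower in VHL-restored cells. The double-knockout shares were 50% higher and 25% lower, against 34.5% and 35.1% of the genes with at least 10 counts. The VHL-restored shares were 25% each way, against 34.1% higher and 35.5% lower. SDHB encodes the iron-sulfur subunit, which carries electrons from the flavin to ubiquinone. SDHB was at 152 and 156 CPM in double-knockout, 91.1 and 99.99 CPM in VHL-restored and 83.2 and 83.2 CPM in parental cells. The double-knockout libraries were well above the other 4, and the VHL-restored libraries were slightly above the parental ones. The log2 fold change was 0.88 ± 0.06 (SE, adjusted p = 2.42e-13) in double-knockout and 0.20 ± 0.07 (adjusted p = 0.00966) in VHL-restored cells by edgeR, and 0.68 ± 0.06 between double-knockout and VHL-restored cells (adjusted p = 6.96e-11). The smaller VHL-restored call was lost without VHL-restored replicate 2 or either parental replicate, with adjusted p between 0.0845 and 0.141. After the length and GC correction SDHB was still higher, at 0.73 in double-knockout cells and 0.21 in VHL-restored cells.

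SDHC encodes a membrane anchor of complex II that helps to bind ubiquinone. SDHC was at 37.0 and 34.0 CPM in double-knockout, 21.0 and 20.1 CPM in VHL-restored and 35.01 and 35.5 CPM in parental cells. Both VHL-restored libraries were below the other 4, and the double-knockout libraries were on either side of the parental ones. SDHC fell in VHL-restored cells (log2 fold change -0.78 ± 0.08, SE, edgeR adjusted p = 1.10e-09), to a level 1.71-fold lower. In double-knockout cells the log2 fold change was 0.01 ± 0.08 (adjusted p = 0.925), which became 0.18 (adjusted p = 0.0117) after the length and GC correction, and the lines differed by 0.79 ± 0.08 (adjusted p = 6.08e-10). SDHC has processed pseudogenes, and the sources used here do not say how reads shared with near-identical copies were counted. The same holds for many of the genes below, such as the UQCRH, COX and ATP5 genes, so a level may include reads of copies.

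SDHA encodes the flavoprotein subunit that oxidises succinate. SDHA was at 108 and 102 CPM in double-knockout, 118 and 119 CPM in VHL-restored and 128 and 123 CPM in parental cells. The groups did not overlap, with double-knockout lowest and parental highest. SDHA fell in double-knockout cells (log2 fold change -0.26 ± 0.06, SE, adjusted p = 5.93e-04, edgeR), and the VHL-restored value was -0.08 ± 0.06 (adjusted p = 0.291). It was the lower call among the 4 in double-knockout cells that held with any library left out, and it was -0.30 after the length and GC correction, which gave -0.14 (adjusted p = 0.00490) in VHL-restored cells. SDHD, the other membrane anchor, was at 41.1 and 52.2 CPM in double-knockout, 41.5 and 42.0 CPM in VHL-restored and 38.9 and 41.9 CPM in parental cells. Double-knockout replicate 2 stood above the other 5 libraries and replicate 1 lay within the parental range. The SDHD call in double-knockout cells (log2 fold change 0.21 ± 0.09, SE, adjusted p = 0.0449) was lost without double-knockout replicate 2 or either parental replicate, with adjusted p between 0.172 and 0.832. With length and GC corrected, SDHD was at 0.10 (adjusted p = 0.160) in double-knockout and 0.16 (adjusted p = 0.0169) in VHL-restored cells, against 0.05 ± 0.09 (adjusted p = 0.658) in VHL-restored cells without the correction.

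**Figure D3:**
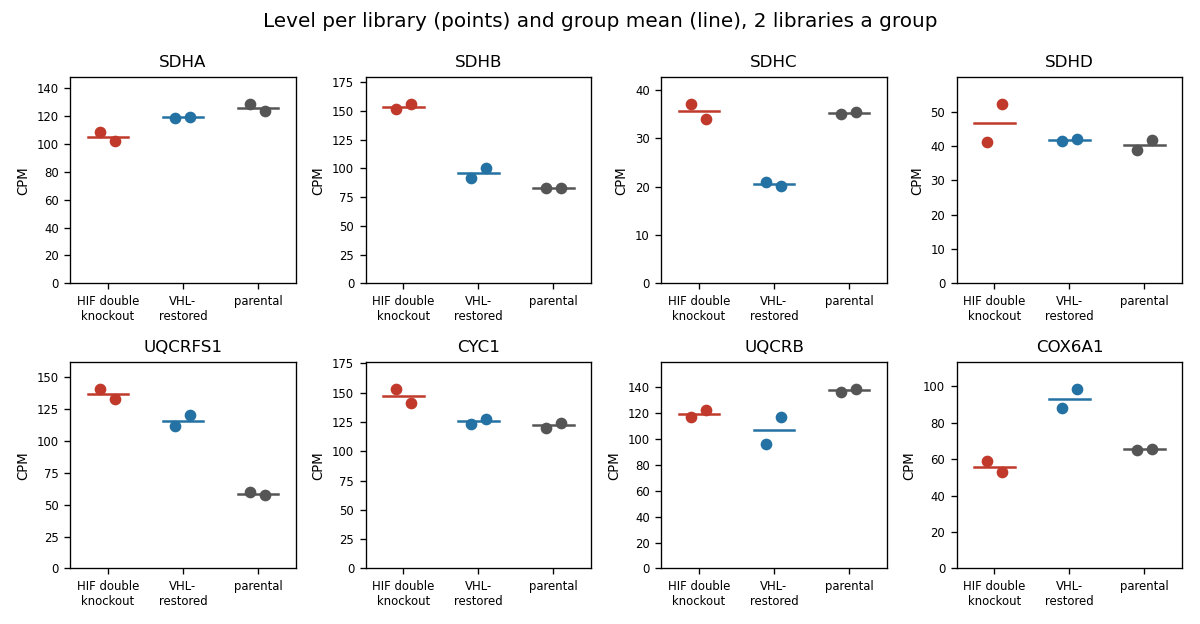
Level of 8 subunit genes in each library (points, CPM, axes from 0) with the group mean as a line, for HIF double-knockout, VHL-restored and parental cells with 2 libraries each. SDHC is low in VHL-restored cells alone, SDHB is high in double-knockout cells, UQCRFS1 is lowest in parental cells, and COX6A1 is highest in VHL-restored cells.

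In complex III, 7 of 9 subunits were higher in double-knockout cells, 1 was lower and 1 did not pass, with a median log2 fold change of 0.37. These are 77.8% higher and 11.1% lower, against 34.5% and 35.1% of the genes with at least 10 counts. The VHL-restored shares were 44.4% higher and 22.2% lower, against 34.1% and 35.5%. In VHL-restored cells 4 were higher, 2 lower and 3 not passed, with a median of 0.17, or 0.25 without VHL-restored replicate 1 and 0.04 without VHL-restored replicate 2. The length and GC correction left 5 higher and none lower in double-knockout cells, with a median of 0.10, and gave 5 higher and 3 lower in VHL-restored cells, with a median of 0.15. UQCRFS1, the Rieske iron-sulfur protein, takes the first electron from ubiquinol. UQCRFS1 was at 141 and 133 CPM in double-knockout, 112 and 120.2 CPM in VHL-restored and 59.98 and 57.2 CPM in parental cells. All 4 engineered libraries were above both parental libraries, and this gene had the largest rise among the subunits in both lines. For UQCRFS1 the log2 fold change was 1.22 ± 0.07 (SE, adjusted p = 2.13e-16) in double-knockout and 0.98 ± 0.07 (adjusted p = 6.10e-14) in VHL-restored cells by edgeR, and the lines differed by 0.24 ± 0.06 (adjusted p = 0.00162). Corrected for length and GC, the UQCRFS1 values were 1.31 in double-knockout cells and 1.03 in VHL-restored cells.

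CYC1 is cytochrome c1, the next electron carrier of complex III. CYC1 was at 153 and 141 CPM in double-knockout, 124 and 127 CPM in VHL-restored and 119.97 and 124 CPM in parental cells. The double-knockout libraries were above the other 4, and the VHL-restored range overlapped the parental one. CYC1 rose in double-knockout cells by 0.27 ± 0.06 on the log2 scale (SE, adjusted p = 4.20e-04, edgeR), with 0.04 ± 0.06 in VHL-restored cells (adjusted p = 0.604). After the length and GC correction the double-knockout value was 0.10 (adjusted p = 0.0368).

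The small subunits UQCRH, the hinge protein that helps cytochrome c1 meet cytochrome c, UQCR10 and UQCR11 were all higher in double-knockout cells. UQCRH was at 96.8 and 108 CPM in double-knockout, 69.1 and 81.8 CPM in VHL-restored and 68.4 and 65.9 CPM in parental cells. Both double-knockout libraries were above the other 4. Its log2 fold change was 0.61 ± 0.08 (SE, adjusted p = 2.89e-08) in double-knockout cells and 0.17 ± 0.08 (adjusted p = 0.0656) in VHL-restored cells, where it passed without VHL-restored replicate 1 (adjusted p = 9.78e-04). UQCR11 was at 91.8 and 88.0 CPM in double-knockout, 82.1 and 86.5 CPM in VHL-restored and 64.1 and 66.3 CPM in parental cells. The engineered lines were close to each other and both above parental cells, with log2 fold changes of 0.46 ± 0.07 (adjusted p = 4.47e-07) in double-knockout and 0.37 ± 0.07 (adjusted p = 1.72e-05) in VHL-restored cells. UQCR10 was at 74.4 and 75.2 CPM in double-knockout, 59.4 and 66.3 CPM in VHL-restored and 55.9 and 55.7 CPM in parental cells. It rose in double-knockout cells (0.42 ± 0.07, adjusted p = 5.52e-06), while its VHL-restored value of 0.17 ± 0.07 (adjusted p = 0.0433) was lost without VHL-restored replicate 2 or any library of the other groups, with adjusted p between 0.0586 and 0.422. After the length and GC correction the double-knockout values were 0.38 for UQCRH, 0.23 for UQCR11 and 0.24 for UQCR10, and in VHL-restored cells UQCRH passed at 0.15 (adjusted p = 0.00583) and UQCR11 was at 0.20.

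UQCRB, part of the ubiquinone-binding region, and UQCRC2, a core protein of the matrix side, were the lower complex III subunits. UQCRB was at 117 and 123 CPM in double-knockout, 96.5 and 117 CPM in VHL-restored and 137 and 139 CPM in parental cells. Both engineered lines were below parental cells, and their ranges overlapped each other. The log2 fold change was -0.37 ± 0.07 (SE, adjusted p = 5.32e-05) in VHL-restored cells. In double-knockout cells it was -0.20 ± 0.07 (adjusted p = 0.0167), a call lost without any 1 of the double-knockout or parental libraries (adjusted p between 0.0801 and 0.225). Corrected for length and GC, UQCRB was at -0.08 (adjusted p = 0.141) in double-knockout and -0.21 (adjusted p = 7.11e-06) in VHL-restored cells. UQCRC2 was at 217 and 217 CPM in double-knockout, 171 and 187 CPM in VHL-restored and 217 and 216 CPM in parental cells. It fell in VHL-restored cells (log2 fold change -0.27 ± 0.06, adjusted p = 2.14e-04), with 0.00 ± 0.06 (adjusted p = 1.00) in double-knockout cells. The lines differed by 0.28 ± 0.06 (adjusted p = 1.74e-04).

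The other core protein, UQCRC1, and the small subunit UQCRQ complete the complex. UQCRC1 was at 137 and 128 CPM in double-knockout, 147 and 159 CPM in VHL-restored and 118 and 118 CPM in parental cells. It was highest in VHL-restored cells (log2 fold change 0.37 ± 0.06, SE, adjusted p = 5.98e-06), so the mRNAs of the core proteins changed in opposite directions there. Its double-knockout call (0.16 ± 0.06, adjusted p = 0.0280) was lost without double-knockout replicate 1 or either parental replicate (adjusted p between 0.157 and 0.214) and after the length and GC correction (0.08, adjusted p = 0.0946). UQCRQ was higher in double-knockout cells by 0.37 ± 0.08 (adjusted p = 1.16e-04), with 0.01 ± 0.08 (adjusted p = 0.959) in VHL-restored cells, and after the length and GC correction these were 0.10 (adjusted p = 0.110) in double-knockout and -0.15 (adjusted p = 0.0122) in VHL-restored cells.

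In complex IV, 6 of 9 subunits were higher in double-knockout cells, 2 were lower and 1 did not pass, with a median log2 fold change of 0.28. In VHL-restored cells 2 were higher, 1 was lower and 6 did not pass, with a median of 0.08. The double-knockout shares were 66.7% higher and 22.2% lower, against 34.5% and 35.1% of the genes with at least 10 counts. The VHL-restored shares were 22.2% higher and 11.1% lower, both under the 34.1% and 35.5% of those genes. The double-knockout count was 4 higher and 1 lower without parental replicate 1, and none was lower without double-knockout replicate 2 or parental replicate 2. In VHL-restored cells it was 4 higher and none lower without VHL-restored replicate 1, with a median of 0.17, and 2 higher and 2 lower without VHL-restored replicate 2, with a median of -0.02. Without either parental replicate it was 2 higher and none lower there, with medians of 0.11. The length and GC correction gave 4 higher and 3 lower in double-knockout cells, with a median of 0.08, and 3 higher and 4 lower in VHL-restored cells, with a median of 0.0048. COX5A and COX5B are small subunits on the matrix side of the enzyme. COX5A was at 121 and 118 CPM in double-knockout, 81.1 and 92.3 CPM in VHL-restored and 80.7 and 76.8 CPM in parental cells. The double-knockout libraries were above the other 4. For COX5A the log2 fold change was 0.60 ± 0.07 (SE, adjusted p = 5.85e-09, edgeR) in double-knockout cells, and 0.14 ± 0.07 (adjusted p = 0.0941) in VHL-restored cells, where it passed without VHL-restored replicate 1 (adjusted p = 0.00673). COX5B was at 63.2 and 61.4 CPM in double-knockout, 67.2 and 73.8 CPM in VHL-restored and 71.4 and 75.2 CPM in parental cells. It was lowest in double-knockout cells, whereas COX5A was highest there. The COX5B log2 fold change was -0.23 ± 0.07 (adjusted p = 0.00506) and passed neither without double-knockout replicate 2 nor without parental replicate 2 (adjusted p between 0.0539 and 0.108). After the length and GC correction COX5A was at 0.33 and COX5B at -0.47 in double-knockout cells, and in VHL-restored cells COX5A was at 0.0048 (adjusted p = 0.968) and COX5B at -0.14 (adjusted p = 0.0122), against -0.05 ± 0.07 (adjusted p = 0.528) for COX5B there without it.

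COX6B1 lies on the outer face of the enzyme near the cytochrome c site. COX6B1 was at 132 and 125 CPM in double-knockout, 113 and 133 CPM in VHL-restored and 85.2 and 84.7 CPM in parental cells. The engineered lines overlapped each other and were above parental cells. The log2 fold changes were 0.59 ± 0.07 (SE, adjusted p = 9.62e-09) in double-knockout and 0.53 ± 0.07 (adjusted p = 8.47e-08) in VHL-restored cells by edgeR, and these were 0.31 in double-knockout cells and 0.40 in VHL-restored cells after the length and GC correction. COX6A1 is the general isoform of a subunit for which muscle and heart use COX6A2. COX6A1 was at 58.8 and 53.2 CPM in double-knockout, 88.0 and 98.6 CPM in VHL-restored and 65.3 and 65.7 CPM in parental cells. It was highest in VHL-restored and lowest in double-knockout cells, with no overlap between groups. For COX6A1 the log2 fold change was 0.51 ± 0.07 (adjusted p = 2.96e-07) in VHL-restored cells and -0.73 ± 0.07 between double-knockout and VHL-restored cells (adjusted p = 2.27e-10). The double-knockout value against parental cells was -0.22 ± 0.07 (adjusted p = 0.00979), and that call was lost without double-knockout replicate 2 or either parental replicate (adjusted p between 0.118 and 0.163). With length and GC corrected, the double-knockout value was -0.49 (adjusted p = 1.81e-19).

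COX7B, COX7C and COX8A are single-helix membrane subunits. COX7B was at 108 and 116 CPM in double-knockout, 78.7 and 93.6 CPM in VHL-restored and 79.7 and 79.7 CPM in parental cells. COX8A was at 107 and 96.9 CPM in double-knockout, 73.9 and 79.7 CPM in VHL-restored and 78.3 and 71.4 CPM in parental cells. For both genes the double-knockout libraries were the highest and the VHL-restored range overlapped the parental one. They rose in double-knockout cells, COX7B by 0.49 ± 0.07 (SE, adjusted p = 5.87e-07) and COX8A by 0.44 ± 0.07 (adjusted p = 2.27e-06) on the log2 scale. In VHL-restored cells the values were 0.11 ± 0.07 (adjusted p = 0.209) for COX7B, which passed without VHL-restored replicate 1 (adjusted p = 0.00596), and 0.04 ± 0.07 (adjusted p = 0.712) for COX8A. Corrected for length and GC, COX7B was at 0.25 and COX8A at 0.16 in double-knockout cells, and in VHL-restored cells COX7B was at 0.13 (adjusted p = 0.0176) and COX8A at -0.14 (adjusted p = 0.00911).

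COX7C was at 118 and 126 CPM in double-knockout, 88.2 and 95.5 CPM in VHL-restored and 100.2 and 106 CPM in parental cells. It was highest in double-knockout and lowest in VHL-restored cells with no overlap between groups. The lines differed by 0.41 ± 0.07 (SE, adjusted p = 2.95e-06) on the log2 scale, and this difference passed with any 1 library left out and was 0.15 (adjusted p = 0.00249) after the length and GC correction. Against parental cells the values were smaller, 0.24 ± 0.07 (adjusted p = 0.00217) in double-knockout and -0.17 ± 0.07 (adjusted p = 0.0342) in VHL-restored cells. The double-knockout call was lost without double-knockout replicate 2 or parental replicate 1 (adjusted p between 0.0584 and 0.10) and after the correction (0.03, adjusted p = 0.646), and the VHL-restored call without VHL-restored replicate 1 or either parental replicate (adjusted p between 0.105 and 0.316). COX7A2, the general isoform of its subunit, was higher in double-knockout cells by 0.28 ± 0.07 (adjusted p = 0.00194), a call lost without parental replicate 1 (adjusted p = 0.119) and after the correction (0.08, adjusted p = 0.215). COX6C had -0.11 ± 0.07 (adjusted p = 0.185) in double-knockout and -0.14 ± 0.07 (adjusted p = 0.0942) in VHL-restored cells, and the VHL-restored value passed without VHL-restored replicate 2 (adjusted p = 0.0122). Corrected for length and GC, COX6C passed in both lines, at -0.35 (adjusted p = 3.22e-12) in double-knockout and -0.18 (adjusted p = 6.84e-04) in VHL-restored cells.

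In complex V, 10 of 15 subunits were higher in double-knockout cells, none was lower and 5 did not pass, with a median log2 fold change of 0.23. In VHL-restored cells 8 were higher, 5 lower and 2 not passed, with a median of 0.17. Between double-knockout and VHL-restored cells 8 were higher, 5 lower and 2 not passed. The double-knockout shares were 66.7% higher and 0% lower, against 34.5% and 35.1% of the genes with at least 10 counts. The VHL-restored shares were 53.3% higher and 33.3% lower, against 34.1% and 35.5%. Between the lines the shares were 53.3% and 33.3%, against 36.1% and 35.6%. The double-knockout count of higher genes was 6 without either parental replicate. In VHL-restored cells it was 5 higher and 6 lower without VHL-restored replicate 2, with a median of 0.03, and 5 higher and 4 lower without parental replicate 1, and the median was 0.26 without VHL-restored replicate 1. The enzyme has a catalytic head (F1), a rotor with a ring of c subunits, and a peripheral stalk with membrane subunits that hold the head still. The F1 head genes were higher in 4 of 5 cases in each engineered line. ATP5C1 was the exception, with no call in double-knockout cells and a fall in VHL-restored cells. Of the 7 stalk and membrane genes, 5 were higher and 2 not passed in double-knockout cells, and 2 were higher, 4 lower and 1 not passed in VHL-restored cells. After the length and GC correction complex V had 6 higher and 4 lower in double-knockout cells, with a median of 0.07, and 7 higher and 7 lower in VHL-restored cells, with a median of 0.02.

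**Figure D4:**
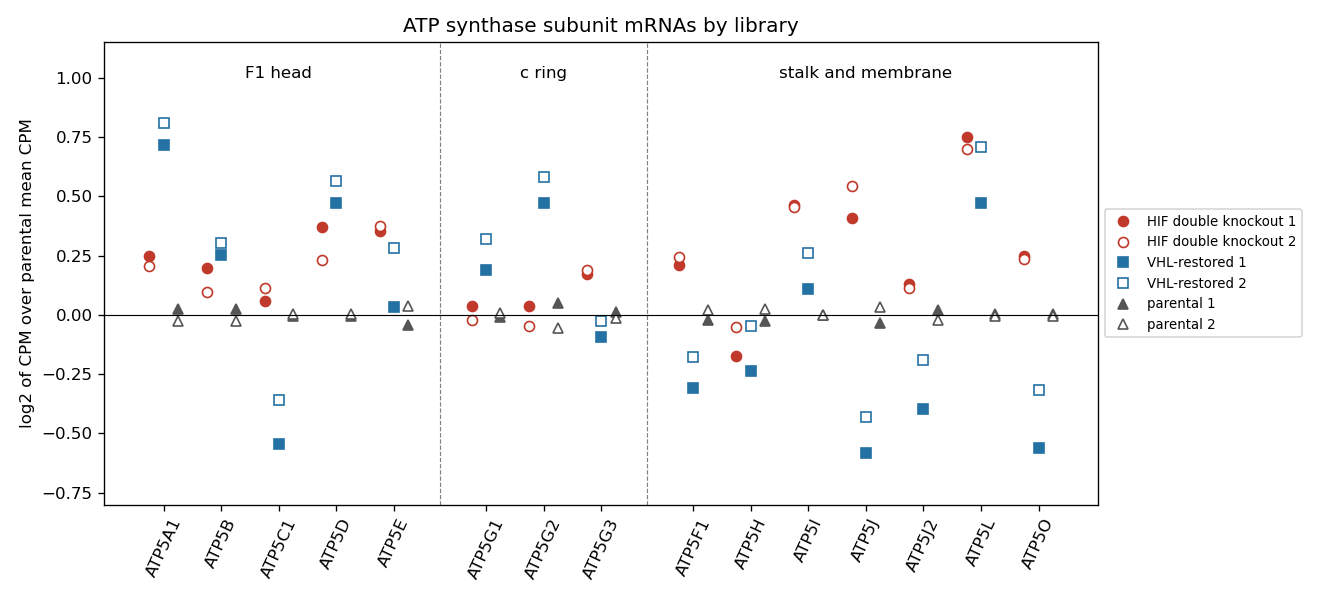
Level of the 15 ATP synthase subunit genes in each library, as the log2 ratio of its CPM to the mean CPM of the parental libraries, grouped into F1 head, c ring, and stalk and membrane genes. Filled and open symbols are replicates 1 and 2 of HIF double-knockout (circles), VHL-restored (squares) and parental cells (triangles). ATP5A1 and ATP5G2 are highest in VHL-restored cells, and the VHL-restored points of ATP5C1, ATP5F1, ATP5J, ATP5J2 and ATP5O are below 0.

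ATP5A1 encodes the alpha subunit of the F1 head. ATP5A1 was at 473 and 459 CPM in double-knockout, 654 and 697 CPM in VHL-restored and 405 and 390.0 CPM in parental cells. The 3 groups did not overlap, with VHL-restored cells highest. For ATP5A1 the log2 fold change was 0.77 ± 0.06 (SE, adjusted p = 2.76e-13, edgeR) in VHL-restored cells, or 1.70-fold. It was 0.23 ± 0.06 (adjusted p = 7.06e-04) in double-knockout cells, lost without parental replicate 2 (adjusted p = 0.0537), and -0.54 ± 0.06 between double-knockout and VHL-restored cells (adjusted p = 6.38e-10). ATP5B, the catalytic beta subunit, was at 929 and 866 CPM in double-knockout, 967 and 1001 CPM in VHL-restored and 826 and 796 CPM in parental cells. Its rise in VHL-restored cells was 0.28 ± 0.05 (adjusted p = 4.34e-05). Its double-knockout value of 0.15 ± 0.05 (adjusted p = 0.0208) was lost without double-knockout replicate 1 or either parental replicate (adjusted p between 0.0898 and 0.247) and after the length and GC correction (0.07, adjusted p = 0.0678).

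ATP5C1 is the gamma subunit, the shaft that turns inside the head. ATP5C1 was at 116 and 120.1 CPM in double-knockout, 76.3 and 86.6 CPM in VHL-restored and 111 and 111 CPM in parental cells. Both VHL-restored libraries were below the other 4. For ATP5C1 the log2 fold change was -0.45 ± 0.07 (SE, adjusted p = 8.94e-07) in VHL-restored and 0.09 ± 0.07 (adjusted p = 0.299) in double-knockout cells. ATP5D, the delta subunit at the foot of the shaft, was at 48.7 and 44.3 CPM in double-knockout, 52.3 and 55.7 CPM in VHL-restored and 37.6 and 37.8 CPM in parental cells. Here the VHL-restored libraries were highest and the parental ones lowest, with log2 fold changes of 0.30 ± 0.08 (adjusted p = 9.58e-04) in double-knockout and 0.52 ± 0.08 (adjusted p = 5.31e-07) in VHL-restored cells. Corrected for length and GC, these were 0.09 (adjusted p = 0.226) in double-knockout and 0.32 (adjusted p = 1.42e-07) in VHL-restored cells. ATP5E, the epsilon subunit, rose by 0.36 ± 0.07 (adjusted p = 3.02e-05) in double-knockout cells. In VHL-restored cells it was at 0.17 ± 0.07 (adjusted p = 0.0419), a call lost without VHL-restored replicate 2 or any library of the other groups (adjusted p between 0.110 and 0.726), and at 0.34 (adjusted p = 6.80e-15) after the length and GC correction.

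The c subunit of the ring is encoded by ATP5G1, ATP5G2 and ATP5G3, whose mature products are identical and whose import sequences differ. ATP5G2 was at 101 and 94.9 CPM in double-knockout, 136 and 147 CPM in VHL-restored and 102 and 94.5 CPM in parental cells. The VHL-restored libraries were above the other 4, and the double-knockout libraries lay within the parental range. ATP5G2 rose in VHL-restored cells by 0.53 ± 0.07 (SE, adjusted p = 2.86e-08), with -0.01 ± 0.07 (adjusted p = 0.987) in double-knockout cells, where it passed at -0.23 (adjusted p = 1.86e-06) after the length and GC correction. ATP5G3 was at 174 and 176 CPM in double-knockout, 145 and 152 CPM in VHL-restored and 156 and 153 CPM in parental cells. It was highest in double-knockout cells (0.18 ± 0.06, adjusted p = 0.0104), and that call was lost without double-knockout replicate 2 or either parental replicate (adjusted p between 0.0501 and 0.0985) and turned to -0.04 (adjusted p = 0.508) after the length and GC correction. The lines differed by -0.53 ± 0.06 for ATP5G2 (adjusted p = 1.99e-08) and 0.24 ± 0.06 for ATP5G3 (adjusted p = 7.86e-04), both double-knockout minus VHL-restored, and the ATP5G3 difference was 0.10 (adjusted p = 0.0344) after the correction, which also gave ATP5G3 a value of -0.13 (adjusted p = 0.00333) in VHL-restored cells. ATP5G1 rose in VHL-restored cells by 0.26 ± 0.07 (adjusted p = 0.00257), a call lost without VHL-restored replicate 2 or parental replicate 1 (adjusted p between 0.0507 and 0.0552), and 0.13 (adjusted p = 0.0250) after the correction. ATP5G1 had 0.01 ± 0.07 (adjusted p = 0.966) in double-knockout cells, and -0.25 (adjusted p = 1.30e-05) there after the length and GC correction.

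The mix of c-subunit mRNAs moved with these changes. Of the summed CPM of the 3 genes, ATP5G3 made up 52.7% and 54.3% in double-knockout, 42.2% and 41.4% in VHL-restored and 50.03% and 50.66% in parental cells. ATP5G2 made up 30.4% and 29.2% in double-knockout, 39.7% and 40.1% in VHL-restored and 32.6% and 31.2% in parental cells. ATP5G1 stayed between 16.5% and 18.5% in all 6 libraries. The ATP5G2 share was highest and the ATP5G3 share lowest in VHL-restored cells. These shares are not per length, so they compare libraries and do not rank the genes by copies.

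The peripheral stalk is made of ATP5F1 (subunit b), ATP5H (d), ATP5J (F6) and ATP5O (OSCP). ATP5J was at 83.7 and 91.9 CPM in double-knockout, 42.1 and 46.7 CPM in VHL-restored and 61.5 and 64.6 CPM in parental cells. The groups did not overlap, with double-knockout highest and VHL-restored lowest. The log2 fold change was 0.48 ± 0.07 (SE, adjusted p = 9.72e-07) in double-knockout and -0.50 ± 0.07 (adjusted p = 7.64e-07) in VHL-restored cells by edgeR. The difference between the lines was 0.98 ± 0.07 (adjusted p = 5.19e-13), or 1.98-fold, the largest among the 37 subunits. ATP5J stayed called in both lines with any 1 library left out and after the length and GC correction, where it was 0.26 in double-knockout cells and -0.52 in VHL-restored cells.

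ATP5O, the OSCP subunit that joins the stalk to the head, was at 195 and 193 CPM in double-knockout, 111 and 132 CPM in VHL-restored and 164 and 164 CPM in parental cells. It had the same order of groups as ATP5J, with no overlap. ATP5O fell in VHL-restored cells (log2 fold change -0.43 ± 0.07, SE, adjusted p = 1.55e-06), and the lines differed by 0.68 ± 0.07 (adjusted p = 2.64e-10). Its double-knockout value of 0.24 ± 0.07 (adjusted p = 0.00225) was lost without double-knockout replicate 1 or either parental replicate (adjusted p between 0.0579 and 0.0964) and was 0.05 (adjusted p = 0.321) after the length and GC correction. ATP5F1 was at 192 and 197 CPM in double-knockout, 134 and 147 CPM in VHL-restored and 164 and 168 CPM in parental cells. It too was highest in double-knockout and lowest in VHL-restored cells. Its values were 0.23 ± 0.06 (adjusted p = 0.00174) in double-knockout cells, lost without parental replicate 1 (adjusted p = 0.0694), and -0.24 ± 0.06 (adjusted p = 0.00115) in VHL-restored cells, lost without parental replicate 2 (adjusted p = 0.0612). ATP5H had -0.11 ± 0.07 (adjusted p = 0.190) in double-knockout and -0.14 ± 0.07 (adjusted p = 0.0945) in VHL-restored cells. ATP5H passed in VHL-restored cells without VHL-restored replicate 2 (adjusted p = 0.00444). With length and GC corrected, ATP5H passed in both lines, at -0.33 (adjusted p = 2.61e-12) in double-knockout and -0.13 (adjusted p = 0.0107) in VHL-restored cells.

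ATP5L (subunit g), ATP5I (e) and ATP5J2 (f) sit in the membrane, where e and g join ATP synthase into dimers. ATP5L was at 159 and 154 CPM in double-knockout, 131 and 155 CPM in VHL-restored and 95.1 and 94.3 CPM in parental cells. All 4 engineered libraries were above both parental libraries. For ATP5L the log2 fold change was 0.73 ± 0.07 (SE, adjusted p = 1.03e-10) in double-knockout and 0.60 ± 0.07 (adjusted p = 7.63e-09) in VHL-restored cells, and these were 0.64 in double-knockout cells and 0.69 in VHL-restored cells after the length and GC correction. ATP5I was higher in double-knockout cells by 0.46 ± 0.08 (adjusted p = 4.06e-06). In VHL-restored cells ATP5I was at 0.19 ± 0.08 (adjusted p = 0.0377), a call lost without VHL-restored replicate 2 or either parental replicate (adjusted p between 0.144 and 0.351). Corrected for length and GC, ATP5I was at 0.16 (adjusted p = 0.0162) in double-knockout and 0.02 (adjusted p = 0.846) in VHL-restored cells. ATP5J2 was at 99.2 and 98.0 CPM in double-knockout, 68.9 and 79.5 CPM in VHL-restored and 91.9 and 89.3 CPM in parental cells. It fell in VHL-restored cells (log2 fold change -0.29 ± 0.07, adjusted p = 6.80e-04), a call lost without parental replicate 1 (adjusted p = 0.0667), and had 0.12 ± 0.07 (adjusted p = 0.141) in double-knockout cells, where it turned to -0.17 (adjusted p = 7.24e-04) after the length and GC correction.

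The 11 members that are not general subunits were mostly quiet. ATP5J2-PTCD1, a readthrough gene that shares exons with ATP5J2 and PTCD1, was at 69.1 and 64.6 CPM in double-knockout, 50.4 and 51.9 CPM in VHL-restored and 62.7 and 63.4 CPM in parental cells. It fell in VHL-restored cells (log2 fold change -0.30 ± 0.07, SE, adjusted p = 4.43e-04), and reads of the shared exons cannot be told apart, so its level is uncertain. ATP5SL, now called DMAC2 and known for complex I assembly rather than ATP synthase, was at 46.6 and 44.4 CPM in double-knockout, 45.6 and 50.1 CPM in VHL-restored and 34.1 and 34.1 CPM in parental cells. It was higher in both engineered lines, by 0.42 ± 0.08 (adjusted p = 2.22e-05) in double-knockout and 0.49 ± 0.08 (adjusted p = 1.87e-06) in VHL-restored cells.

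UQCRHL, a near copy of UQCRH, was at 4.58 and 6.25 CPM in double-knockout, 5.37 and 5.86 CPM in VHL-restored and 3.94 and 4.15 CPM in parental cells, and its reads may come from UQCRH. Both engineered lines were above parental cells, by 0.42 ± 0.15 (SE, adjusted p = 0.0212) in double-knockout and 0.48 ± 0.15 (adjusted p = 0.00789) in VHL-restored cells on the log2 scale. Both calls were lost without either parental replicate, and the double-knockout call also without double-knockout replicate 2. Their adjusted p was then between 0.126 and 0.39 in double-knockout cells and between 0.0828 and 0.148 in VHL-restored cells. COX7A2L, a factor that joins complexes III and IV into supercomplexes, had 0.07 ± 0.07 (adjusted p = 0.429) in double-knockout and -0.13 ± 0.07 (adjusted p = 0.123) in VHL-restored cells, where it passed without VHL-restored replicate 2 (adjusted p = 0.00962). ATP5S had 0.12 ± 0.14 (adjusted p = 0.522) in double-knockout and 0.27 ± 0.14 (adjusted p = 0.103) in VHL-restored cells, where it passed at 0.34 (adjusted p = 0.0127) after the length and GC correction. COX6A2, the muscle isoform, COX8C, known from testis, ATP5L2, UQCRBP1 and ATP5EP2 were at or under 0.397 CPM in every library, where 3 counts are worth 0.101 to 0.132 CPM. COX6B2, known from testis, had no count in any library, and no switch to the tissue isoforms was detectable at this depth.

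Assembly factors for complexes II to V are not members but build them. Of 46 such genes 26 were higher, 9 lower and 11 not passed in double-knockout cells, with a median log2 fold change of 0.23. In VHL-restored cells 18 were higher, 13 lower and 15 not passed, with a median of -0.02. The double-knockout shares were 56.5% higher and 19.6% lower, against 34.5% and 35.1% of the genes with at least 10 counts. The VHL-restored shares were 39.1% higher and 28.3% lower, against 34.1% and 35.5%. The double-knockout median was 0.15 after the length and GC correction, with 22 higher and 11 lower. In VHL-restored cells the count was 11 higher and 12 lower without parental replicate 1, with a median of -0.03, and after the length and GC correction 17 were higher and 16 lower, with a median of 0.03. For complex II, 2 of 4 rose in each line and none fell. SDHAF1, which helps to put iron-sulfur clusters into SDHB, rose by 0.73 ± 0.12 (SE, adjusted p = 4.19e-06) in double-knockout and 1.07 ± 0.12 (adjusted p = 2.11e-09) in VHL-restored cells. SDHAF2, which helps to attach the flavin to SDHA, rose by 0.76 ± 0.08 (adjusted p = 5.32e-10) in double-knockout and 0.34 ± 0.08 (adjusted p = 4.10e-04) in VHL-restored cells. For complex III, 3 of 6 rose and 2 fell in double-knockout cells, and 2 rose and 2 fell in VHL-restored cells. MNF1, now called UQCC2, rose by 0.51 ± 0.09 in double-knockout cells and 1.05 ± 0.09 in VHL-restored cells, and LYRM7, a chaperone of the Rieske protein UQCRFS1, fell in double-knockout (-0.51 ± 0.10, adjusted p = 3.89e-05) and VHL-restored cells (-0.52 ± 0.10, adjusted p = 3.04e-05). C11orf83, now called UQCC3, rose by 0.50 ± 0.10 in double-knockout cells (adjusted p = 5.97e-05). In VHL-restored cells C11orf83 was at 0.24 ± 0.10 (adjusted p = 0.0457), a call lost without any 1 of the VHL-restored or parental libraries (adjusted p between 0.0537 and 0.186) and after the length and GC correction (0.18, adjusted p = 0.0752).

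Complex IV has the most assembly factors. In double-knockout cells 20 of 30 were higher, 4 lower and 6 not passed, with a median log2 fold change of 0.27. In VHL-restored cells 11 were higher, 10 lower and 9 not passed, with a median of -0.07. The double-knockout shares were 66.7% higher and 13.3% lower, against 34.5% and 35.1% of the genes with at least 10 counts. The VHL-restored shares, 36.7% higher and 33.3% lower, were near the 34.1% and 35.5% of those genes. The double-knockout count was 16 higher and 6 lower after the length and GC correction, with a median of 0.16. The VHL-restored count of higher genes was 6 without parental replicate 1 and 7 without parental replicate 2. SCO2, COA6 and COX17 belong to the copper delivery route of complex IV. SCO2 was at 34.9 and 30.1 CPM in double-knockout, 13.6 and 14.2 CPM in VHL-restored and 14.02 and 15.2 CPM in parental cells. Both double-knockout libraries were well above the other 4, and SCO2 rose by 1.16 ± 0.09 on the log2 scale there (SE, adjusted p = 2.10e-12), against -0.07 ± 0.10 (adjusted p = 0.576) in VHL-restored cells, where it was -0.23 (adjusted p = 0.0171) after the length and GC correction. COA6 and COX17 rose in double-knockout cells by 0.83 ± 0.11 (adjusted p = 1.07e-07) and 0.76 ± 0.11 (adjusted p = 9.65e-07). Neither passed in VHL-restored cells (-0.28, adjusted p = 0.0505, and -0.05, adjusted p = 0.748). COA6 passed there after the length and GC correction (-0.26, adjusted p = 0.0308). In VHL-restored cells COX14, which helps to make COX1, rose by 1.17 ± 0.08 (adjusted p = 8.87e-14), PNKD by 0.64 ± 0.07 (adjusted p = 1.47e-09), and COX20, a chaperone of COX2, fell (log2 fold change -0.93 ± 0.07, adjusted p = 2.63e-12). COX14 and PNKD also rose in double-knockout cells, by 0.71 (adjusted p = 9.26e-09) and 0.40 (adjusted p = 7.43e-06). COX20 was at -0.15 there (adjusted p = 0.0789), and at -0.12 (adjusted p = 0.0335) after the length and GC correction.

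For ATP synthase, 1 of 6 assembly factors rose and 3 fell in double-knockout cells, and 3 rose and 1 fell in VHL-restored cells. The double-knockout shares were 16.7% higher and 50% lower, against 34.5% and 35.1% of the genes with at least 10 counts. The VHL-restored shares were 50% higher and 16.7% lower, against 34.1% and 35.5%. ATPAF2 binds the alpha subunit during F1 assembly. ATPAF2 was at 5.30 and 4.70 CPM in double-knockout, 10.2 and 10.4 CPM in VHL-restored and 9.84 and 9.31 CPM in parental cells. It fell in double-knockout cells (log2 fold change -0.94 ± 0.12, SE, adjusted p = 7.19e-08), and was at 0.10 ± 0.11 (adjusted p = 0.472) in VHL-restored cells. C7orf55, now called FMC1, also fell in double-knockout cells (-0.78 ± 0.13, adjusted p = 6.60e-06), and OXA1L, an inner membrane insertase, rose in double-knockout (0.62 ± 0.07, adjusted p = 1.21e-09) and VHL-restored cells (0.44 ± 0.07, adjusted p = 1.04e-06). TMEM70, which helps to form the c ring, fell in VHL-restored cells (-0.74 ± 0.08, adjusted p = 6.04e-09), and its value in double-knockout cells was -0.10 ± 0.08 (adjusted p = 0.324). TMEM242 rose in VHL-restored cells (0.36 ± 0.09, adjusted p = 0.00136), a call lost without parental replicate 1 (adjusted p = 0.0714).

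Of 7 further genes of these complexes that the symbol rule leaves out, 4 were higher and 3 lower in double-knockout cells. In VHL-restored cells 3 were higher, 3 lower and 1 not passed. Of the genes with at least 10 counts, 34.5% were higher and 35.1% lower in double-knockout cells. In VHL-restored cells these shares were 34.1% and 35.5%. CYCS, cytochrome c, was at 141 and 145 CPM in double-knockout, 49.0 and 51.7 CPM in VHL-restored and 52.7 and 54.5 CPM in parental cells. USMG5, now called ATP5MK and part of the ATP synthase membrane domain, was at 89.4 and 104 CPM in double-knockout, 28.5 and 33.2 CPM in VHL-restored and 40.7 and 47.7 CPM in parental cells. For both genes double-knockout cells were highest and VHL-restored cells lowest. The double-knockout log2 fold changes were 1.42 ± 0.07 (SE, adjusted p = 5.04e-18) for CYCS and 1.13 ± 0.08 (adjusted p = 4.30e-13) for USMG5. In VHL-restored cells CYCS did not pass (-0.09, adjusted p = 0.316), and USMG5 was lower (-0.51, adjusted p = 1.18e-05). COX4I1, the general isoform of the complex IV subunit that hypoxia is known to switch, rose in VHL-restored cells by 0.52 ± 0.06 (adjusted p = 2.97e-08). In double-knockout cells COX4I1 was at 0.27 ± 0.06 (adjusted p = 4.55e-04), lost without parental replicate 2 (adjusted p = 0.0604) and after the length and GC correction (0.03, adjusted p = 0.536). NDUFA4, a complex IV subunit, rose in double-knockout cells (0.36 ± 0.07, adjusted p = 2.31e-05) and fell in VHL-restored cells (-0.67 ± 0.07, adjusted p = 4.50e-10). Its HIF-induced relative NDUFA4L2 was at 0.0342 and 0 CPM in double-knockout, 0.0715 and 0.214 CPM in VHL-restored and 60.1 and 57.3 CPM in parental cells. NDUFA4L2 had 1 and 0 counts in the double-knockout and 2 and 6 counts in the VHL-restored libraries, so no fold is given.

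General mitochondrial genes were mostly higher in double-knockout cells. Of 20 genes for import, chaperones, porins and carriers, 16 were higher, 2 lower and 2 not passed in double-knockout cells, with a median log2 fold change of 0.59. In VHL-restored cells 11 were higher, 8 lower and 1 not passed, with a median of 0.24. The double-knockout shares were 80% higher and 10% lower, against 34.5% and 35.1% of the genes with at least 10 counts. The VHL-restored shares were 55% higher and 40% lower, against 34.1% and 35.5%. SLC25A5, an ADP and ATP carrier, rose in double-knockout cells by 1.08 ± 0.06 (SE, adjusted p = 4.19e-16), and the import gene TIMM17A and the porin VDAC2 by 1.02 ± 0.07 and 1.01 ± 0.07 (adjusted p = 6.70e-14 and 3.58e-13). SLC25A5 also rose in VHL-restored cells (0.37, edgeR adjusted p = 4.24e-06). TIMM17A and VDAC2 fell there (-0.45, adjusted p = 3.91e-06, and -0.38, adjusted p = 1.26e-04). In VHL-restored cells the phosphate carrier SLC25A3 rose by 0.95 ± 0.06 (adjusted p = 2.19e-15) and TIMM44 by 0.58 ± 0.07 (adjusted p = 7.70e-09), while the import receptor TOMM20 fell (log2 fold change -0.69 ± 0.06, adjusted p = 1.51e-11). These genes moved the same way in double-knockout cells. There TIMM44 was at 0.955 (adjusted p = 8.23e-14) and TOMM20 at -0.36 (adjusted p = 3.5e-06). SLC25A3 was at 0.24 (adjusted p = 5.57e-04), a call lost without parental replicate 2. Without the length and GC correction, the medians of this list lay above those of the subunits in both comparisons. That is a description of the counts and not a test, and no corrected median is given for this list.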

How the data were processed

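The authors deposited counts, a table of whole numbers of reads per gene symbol with 19009 rows and a column for each of the 6 libraries. Its name calls the values normalized, but the columns hold whole numbers with differing totals, so they were treated as raw counts; 0 columns were left unmapped to a sample. The tools in the submitters' processing notes are featureCounts 2.0.8, HISAT2 2.2.1, Trimmomatic 0.39, FastQC 0.74 and limma 3.58.1, with both hg38 and hg19 as builds. Their settings, including strandedness and multi-mapping, are not given in these sources.

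The 18273 genes that had a count of 1 or more in any library were tested with edgeR 4.0.16 in R 4.3.3, by a quasi-likelihood fit of 3 group means over all 6 libraries, TMM scaling (factors 0.977 to 1.02), prior count 0.125 and Benjamini-Hochberg adjustment over all genes at 0.05. A SE is the log2 fold change over the square root of its F value. Chi-square over degrees of freedom between replicates was 4.86 in double-knockout, 6.89 in VHL-restored and 2.65 in parental cells, above the 1 of counting error alone. A limit of 3 counts covers counting error only. The fit was tested on simulated data.

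Alternatives were DESeq2 1.42.0 size factors, median centring, an expression filter, the DESeq2 test, limma-voom 3.58.1, a fit of the compared groups only, a replicate block and leaving out each library. The length and GC correction, with natural splines of 5 degrees of freedom and GENCODE v29 transcript lengths, was chosen after seeing the data. Genes given in full were the complex II genes, CYC1, UQCRFS1 and, per complex, up to 5 members called in each direction with the largest change and no overlap with parental cells; from other lists, up to 3 called genes with the largest change. Members outside that rule are named because the counts turn on them. The members and lists were chosen with earlier results of these data known. Promoter sequences come from RefSeq on GRCh38.p14.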

Additional observations from a re-analysis of the deposited data

How the results depend on the processing

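Under the scalings by DESeq2 size factors and median centring, the expression filter, the DESeq2 test, limma-voom, and the fit of the compared groups only, each count of higher or lower members stayed within 1.5 times its value in the report. No member or list gene that passed in the main fit or the alternative changed sign. With any 1 library left out, double knockout against parental had 18 to 27 members higher and 1 to 4 lower, VHL-restored against parental 11 to 20 higher and 8 to 13 lower, and double knockout against VHL-restored 18 to 26 higher and 4 to 9 lower. These fits leave 1 group with 1 library, whose spread is taken from the other groups. The length and GC correction gave 8 lower members in double knockout against parental and 17 lower in VHL-restored against parental. Among members that passed with or without it, it reversed the log2 fold change of ATP5G1 (-0.25), ATP5G3 (-0.036) and ATP5J2 (-0.17) in double knockout against parental. In VHL-restored against parental it reversed UQCRQ (-0.15) and COX8A (-0.14). In double knockout against VHL-restored it reversed COX6C (-0.17), COX7A2 (-0.011), COX7A2L (-0.010), ATP5E (-0.035) and ATP5H (-0.20). Some members that passed in neither fit also changed sign. Examples are ATP5C1 in double knockout against parental (0.09 to -0.07) and CYC1 in VHL-restored against parental (0.04 to -0.09). The cause was not tested.

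The main fit did not pair samples by replicate number. Same-numbered libraries showed little shared deviation over 13702 genes. The correlations were 0.0533 for double knockout with parental, 0.0116 for VHL-restored with parental and 0.0139 for double knockout with VHL-restored. Such correlations cannot show whether the samples were prepared in pairs. With a replicate block, 27 members were higher and 4 lower in double knockout against parental, 18 and 11 in VHL-restored against parental, and 25 and 9 in double knockout against VHL-restored. Depth limits only the tissue isoforms, pseudogenes and ATP5L2, whose levels are near 3 counts.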

Other observations

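Among 15 regulators of nuclear mitochondrial genes, 6 were higher, 4 lower and 5 not passed in double-knockout cells. In VHL-restored cells 6 were higher, 6 lower and 3 not passed. The double-knockout shares were 40% higher and 26.7% lower, against 34.5% and 35.1% of the genes with at least 10 counts. The VHL-restored shares were 40% each way, against 34.1% higher and 35.5% lower. PPARGC1A encodes PGC-1alpha, a coactivator that raises mitochondrial gene expression in many tissues. PPARGC1A was at 0.0684 and 0.311 CPM in double-knockout, 0.0715 and 0 CPM in VHL-restored and 45.9 and 44.1 CPM in parental cells. It was near the limit of counting in all 4 engineered libraries, and its relation to the subunit genes was not tested. Its relative PPARGC1B rose in double-knockout cells, at 0.98 ± 0.14 on the log2 scale (SE, edgeR adjusted p = 2.20e-07), and POLRMT, the mitochondrial RNA polymerase, rose by 0.95 ± 0.08 (adjusted p = 1.58e-12). Both also rose in VHL-restored cells. POLRMT was at 0.57 there (adjusted p = 1.06e-07). PPARGC1B was at 0.48 (adjusted p = 0.0044), a call lost without parental replicate 1. GABPB1, a subunit of the ETS factor GABP, rose by 0.65 ± 0.09 (adjusted p = 1.72e-07) in VHL-restored cells and by 0.40 (adjusted p = 3.59e-04) in double-knockout cells. MYC, which promotes mitochondrial gene expression in many cells, fell in VHL-restored cells (log2 fold change -1.43 ± 0.06, adjusted p = 1.20e-19), and was also lower in double-knockout cells (-0.40 ± 0.06, adjusted p = 3.62e-07).

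Of 10 genes of mitophagy and mitochondrial turnover, 3 were higher, 5 lower and 2 not passed in double-knockout cells. In VHL-restored cells none was higher, 8 were lower and 2 not passed. The double-knockout shares were 30% higher and 50% lower, against 34.5% and 35.1% of the genes with at least 10 counts. The VHL-restored share of lower genes was 80%, against 35.5%. BNIP3, a HIF target that marks mitochondria for removal, was at 31.4 and 33.1 CPM in double-knockout, 15.6 and 17.3 CPM in VHL-restored and 162 and 167 CPM in parental cells. Both engineered lines were far below parental cells, with log2 fold changes of -2.35 ± 0.07 (SE, adjusted p = 6.68e-23) in double-knockout and -3.32 ± 0.08 (adjusted p = 7.18e-26) in VHL-restored cells. BNIP3L, its relative, was at 38.4 and 41.8 CPM in double-knockout, 83.2 and 84.3 CPM in VHL-restored and 124 and 127 CPM in parental cells, lowest in double-knockout cells. MXI1, a HIF target that opposes MYC, fell in both lines, by log2 fold changes of -1.41 ± 0.08 (adjusted p = 2.85e-16) in double-knockout and -1.55 ± 0.08 (adjusted p = 3.95e-17) in VHL-restored cells. PARK2, which tags damaged mitochondria, was lower by log2 fold changes of -0.69 ± 0.24 (adjusted p = 0.0136) in double-knockout and -0.80 ± 0.24 (adjusted p = 0.00490) in VHL-restored cells. The double-knockout call of PARK2 was lost without any 1 of the double-knockout or parental libraries (adjusted p between 0.0599 and 0.0896), and its VHL-restored call without VHL-restored replicate 1 or parental replicate 2 (adjusted p between 0.0562 and 0.0881).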
